A study of Mus musculus with 13 samples.

Results

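The genes Tmem204, Upk1b, B3galt5, Slco4a1, Gpr165, Fam212a, Trmt12, Tmc7 and Nid2 are 9 of the 48587 gene symbols in the deposited bulk RNA sequencing counts. They were selected on measured values, because their counts in brain microglia lay far above those in macrophages of both nerves examined, the sciatic and the optic nerve. All 9 were among the 13246 genes that passed the filter on low counts. Levels are given as CPM, the counts per 1000000 counted reads of a library after scaling by the trimmed mean of M values (TMM).

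The study set brain microglia (5 libraries) beside macrophages of the optic nerve (4 libraries) and of the sciatic nerve (4 libraries). Total RNA came from C57BL/6J mice in all 13 libraries; no genetic change, treatment or injury is named for any group. The labels do not say whether libraries of a group came from separate animals, so a p-value measures only the spread between these libraries, which may be technical. In the count table the brain libraries carry a prefix that no label explains and were taken as brain microglia by elimination, so brain 1 to 5 are table numbers, not the replicate numbers of the labels.

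The selection held for 8 of the 9 genes in the sense that every brain library lay above every nerve library, a pattern found in 9.72% of all genes tested. Nid2 went against it. Its sciatic nerve level was 78.7% of its brain level, and the libraries of those groups overlapped. In the optic nerve all 9 genes lay below every brain library, yet at 2.86% to 31.9% of the brain mean. In the sciatic nerve 5 of the 9 genes (Tmem204, Upk1b, B3galt5, Slco4a1 and Tmc7) had 5 counts or fewer over the 4 libraries together.

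Microglia are the resident macrophages of the brain parenchyma. They are kept apart from macrophages elsewhere by a gene programme that depends on transforming growth factor beta and on their surroundings, and much of it fades when microglia leave the brain. Macrophages of a peripheral nerve lie among fibroblasts, vessels and Schwann cells, whereas the optic nerve is a central nervous system tract with oligodendrocytes. The 9 genes belong to no shared pathway. Tmem204 encodes a claudin-like membrane protein of cell junctions, best known from endothelium. Upk1b is a tetraspanin of the plaques that line the bladder. B3galt5 is a Golgi galactosyltransferase, Slco4a1 a transporter of organic anions including thyroid hormone, Tmc7 a member of the transmembrane channel-like family and Gpr165 an orphan G protein-coupled receptor. Fam212a, now named Inka1, encodes an inhibitor of the p21-activated kinase Pak4. Trmt12 acts in the synthesis of wybutosine, a modified base of phenylalanine tRNA. Nid2 encodes nidogen-2, which links laminin and collagen IV in basement membranes.

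The genes lie at 9 separate places, given here in GRCm38 with GENCODE vM21 gene bounds, and all are annotated as protein-coding. Tmem204 lies at chr17:25057702-25083591 on the minus strand. Upk1b lies at chr16:38773184-38800328 on the minus strand, and B3galt5 at chr16:96235801-96319859 on the plus strand. Slco4a1 lies at chr2:180456245-180474867 (plus), Gpr165 at chrX:96713441-96719388 (plus) and Fam212a at chr9:107984223-107985879 (minus). Trmt12 lies at chr15:58872674-58877127 (plus), Tmc7 at chr7:118535841-118584736 (minus) and Nid2 at chr14:19751265-19811787 (plus). Counts cover whole genes, so the values refer to all exons together.

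Start-site sequences were matched for 5 of the 9 genes (B3galt5, Slco4a1, Gpr165, Fam212a and Tmc7) in RefSeq, GRCm38.p6, with 8 windows of 250 bases before a start. B3galt5 and Slco4a1 are shown because their levels followed each other most closely across the 13 libraries of any pair of the 9 genes; capitals mark CG dinucleotides. Tmc7 is shown because it held the most motif matches, and capitals mark the match that lies outside annotated exons. The stretches are chr16:96235551-96235800 (plus strand), chr2:180455995-180456244 (plus strand) and chr7:118584737-118584936 (minus strand), each 5′ to 3′ along the gene.
B3galt5: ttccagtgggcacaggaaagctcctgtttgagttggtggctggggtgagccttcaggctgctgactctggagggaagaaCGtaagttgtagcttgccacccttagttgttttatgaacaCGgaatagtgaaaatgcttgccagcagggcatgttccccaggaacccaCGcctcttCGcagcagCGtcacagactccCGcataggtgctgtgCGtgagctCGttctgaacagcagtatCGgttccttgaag
Slco4a1: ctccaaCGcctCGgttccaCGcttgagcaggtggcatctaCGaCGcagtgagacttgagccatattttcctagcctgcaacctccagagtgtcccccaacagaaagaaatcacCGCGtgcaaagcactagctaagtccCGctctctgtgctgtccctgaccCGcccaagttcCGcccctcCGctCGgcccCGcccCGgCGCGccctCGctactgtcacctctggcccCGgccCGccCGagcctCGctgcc
Tmc7: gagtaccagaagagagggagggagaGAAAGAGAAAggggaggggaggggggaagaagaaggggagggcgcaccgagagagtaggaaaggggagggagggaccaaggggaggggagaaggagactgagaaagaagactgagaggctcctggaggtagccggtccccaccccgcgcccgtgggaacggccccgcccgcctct

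The B3galt5 window shown holds 9 CG dinucleotides, and its other windows hold 6 and 20. The Slco4a1 window shown holds 21, and its other window 4, so windows of the same gene differed by more than the windows shown. The median over all 32851 RefSeq windows was 6, with quartiles at 2 and 16. On both strands, 9 motifs were searched. They were GAGGAAGT (PU.1-type ETS), TGTGGT (RUNX), TTGCNNAA (CEBP), CAGACA (SMAD), TATAAA (the box named after these letters), TGACGTCA (CRE), TGAGTCA (AP-1), a MEF2 motif of CTA and TAG with any 4 bases between them, and an IRF motif of GAAA repeated after any 2 bases; they do not overlap where they matched. The IRF match of Tmc7 starts 225 bases before the RefSeq start, and 2.98% of all windows hold that motif. A CRE match of Tmc7 starts 49 bases before the same start, inside an exon of the GENCODE models, and 1.55% of all windows hold it. Gpr165 has a TATA box match 30 bases before its RefSeq start (12.4% of all windows). The last 27 bases of that window are exonic in the GENCODE models, so the match runs into the exon. For B3galt5, 1 of the 3 windows has a RUNX match at 178 bases (14.0%), and 234 bases of that window are exonic in the GENCODE models. The other 5 motifs were in none of the 8 windows, and in 2.44% (PU.1-type ETS), 9.56% (CEBP), 3.20% (MEF2), 17.1% (SMAD) and 4.46% (AP-1) of all windows. No motif was common to several of the genes.

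Library totals ran from 10.9 to 23.5, in units of 1000000 counts. Brain 1 stood apart with the lowest total and with a mitochondrial share of 3.79%. That share was 0.410% to 0.868% in brain 2 to 5 and 0.447% to 1.23% in nerve libraries. Microglial markers summed to between 32748 and 61145 CPM in the brain libraries, 27441 to 30254 CPM in the optic nerve and 3141 to 3413 CPM in the sciatic nerve. Markers of border and sciatic nerve macrophages ran the other way, at 8.52 to 26.4 CPM in brain, 299.7 to 621 CPM in the optic nerve and 21829 to 32750 CPM in the sciatic nerve. In bulk samples, fewer cells that express a gene and less RNA per cell cannot be told apart.

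**Figure D1:**
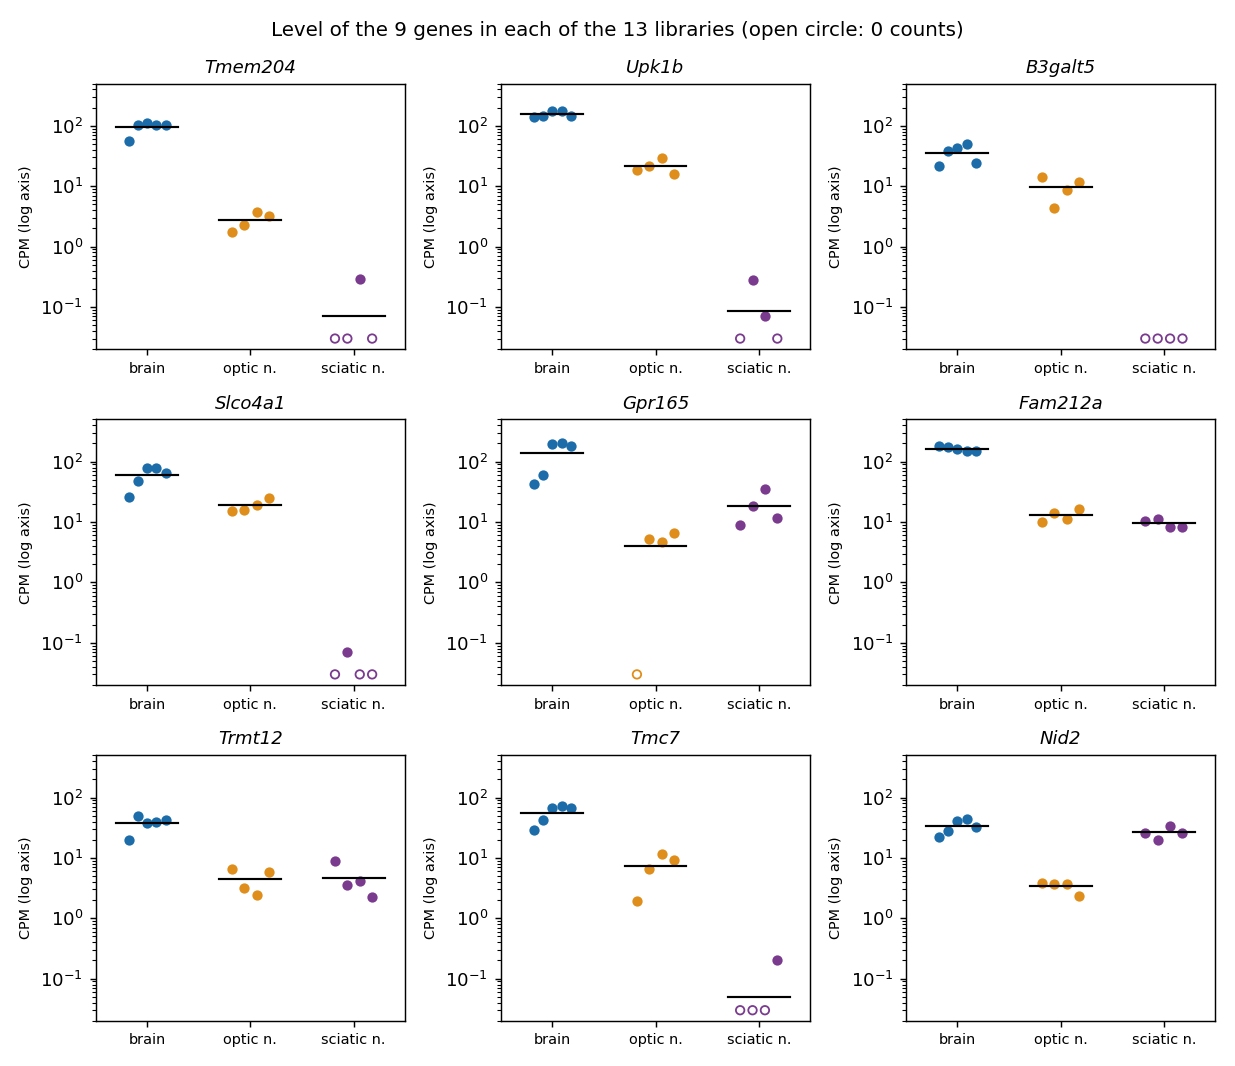
Level of each of the 9 genes in the 13 libraries, as CPM on a log axis, for brain, optic nerve and sciatic nerve; points are libraries, black lines are group means, and open circles at the foot of the axis are libraries with 0 counts. Brain libraries lie highest for 8 genes, and the sciatic points of Nid2 lie among its brain points.

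Among the genes of membrane proteins, Upk1b was read mostly in brain, at a clearly lower level in the optic nerve, and almost not at all in the sciatic nerve. The brain libraries 1 to 5 read 138, 143, 175, 176 and 144 CPM. The optic nerve libraries 1 to 4 read 18.5, 21.9, 29.2 and 16.0 CPM, and the sciatic libraries 0, 0.277, 0.0720 and 0 CPM. The groups were ordered with no overlap, and the sciatic reads amount to 5 counts over 4 libraries. Group means were 155 ± 18.8 CPM in brain (SD, n = 5), 21.4 ± 5.73 in the optic nerve (SD, n = 4) and 0.0872 ± 0.131 in the sciatic nerve (SD, n = 4), so the optic nerve held 13.8% of the brain level. Against the optic nerve, the sciatic nerve was lower by a log2 fold change of -7.86 (SE 0.47, edgeR adjusted p = 1.30e-08). Without sciatic 2, which holds 4 of the 5 counts, the fit gave -9.52, but with 1 sciatic count left the size of this value is not measured.

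Tmem204 had the smallest optic nerve share of its brain level among the 9 genes. The brain libraries read 55.2, 103, 110, 105 and 105 CPM, the optic nerve libraries 1.76, 2.26, 3.74 and 3.20 CPM, and of the sciatic libraries only sciatic 3 had any counts, at 0.288 CPM. Brain 1 lay well below the other 4 brain libraries, and no groups overlapped. Means were 95.6 ± 22.7 CPM in brain (SD, n = 5), 2.74 ± 0.894 in the optic nerve (SD, n = 4), or 2.86% of the brain level, and 0.0720 ± 0.144 in the sciatic nerve (SD, n = 4; 4 counts in all). The sciatic minus optic log2 fold change was -5.19 (SE 0.64, adjusted p = 2.60e-05). In a fit of the 8 nerve libraries alone it was -5.18 (SE 1.12, adjusted p = 0.00471), and over the alternatives the adjusted p was at most 0.0109. Without sciatic 3, which holds all 4 counts, the fit gave -8.72, but no sciatic counts are left and the size of this value is not measured. A sciatic library with 0 counts still allows a level of 0.196 to 0.208 CPM, the value of 3 counts.

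Because Tmem204 is known from endothelium, endothelial markers were read beside it. Over 12 such genes the sum was 18.3 to 49.3 CPM in brain libraries. Most of it was Pecam1 (29.1 ± 11.7 CPM, SD, n = 5), which myeloid cells also express. Kdr came next in brain, at 5.29 ± 1.86 CPM (SD, n = 5), with 5.55 ± 1.35 in the optic and 2.06 ± 2.63 in the sciatic nerve (SD, n = 4). Cldn5, Esam, Emcn and Ptprb were at 0 counts in all brain libraries, and Cdh5 averaged 0.286 CPM there. In the sciatic nerve Egfl7 was the highest of the list, at 10.1 ± 1.85 CPM. The sums were 12.7 to 20.03 CPM in the optic nerve and 9.14 to 19.7 CPM in the sciatic nerve. What part of the Tmem204 reads came from endothelial cells was not tested.

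B3galt5, Slco4a1 and Tmc7 also kept a part of their brain level in the optic nerve and were at or next to 0 in the sciatic nerve. B3galt5, which extends glycan chains with galactose, read 21.5, 38.8, 42.2, 49.4 and 24.6 CPM in brain 1 to 5 and 14.4, 4.30, 8.65 and 11.95 CPM in optic 1 to 4. All 4 sciatic libraries had 0 counts. The optic nerve mean was 9.82 ± 4.37 CPM (SD, n = 4), 27.8% of the brain mean of 35.3 ± 11.9 CPM (SD, n = 5). With the sciatic group set to its limit of 3 counts over 4 libraries (0.0512 CPM), the optic nerve was at least 192-fold higher and brain at least 690.0-fold higher. The adjusted p of the sciatic against optic test was 2.34e-06.

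Slco4a1 read 26.0, 48.3, 78.5, 79.7 and 64.3 CPM in the brain libraries and 15.5, 16.1, 18.98 and 25.3 CPM in the optic nerve. The groups came close to touching, since the lowest brain library was only 1.03 times the highest optic library. A single count in sciatic 2 (0.0692 CPM) was all that the sciatic nerve held. The optic nerve mean of 18.96 ± 4.47 CPM (SD, n = 4) was 31.9% of the brain mean of 59.4 ± 22.6 CPM (SD, n = 5), the largest optic share of the 9 genes. The optic to sciatic ratio was 1112 with a 95% counting interval of 199.5 to 43913 (adjusted p = 3.57e-08).

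Tmc7 read 29.0, 41.9, 66.8, 72.6 and 66.3 CPM in brain and 1.91, 6.67, 11.6 and 9.29 CPM in the optic nerve. Its sciatic reads were 3 counts, all in sciatic 4 (0.200 CPM). No groups overlapped, although optic 1 lay well below the other 3 optic libraries. The optic nerve mean of 7.37 ± 4.16 CPM (SD, n = 4) was 13.3% of the brain mean of 55.3 ± 18.9 CPM (SD, n = 5). The optic to sciatic ratio was 144 (95% counting interval 49.3 to 699, adjusted p = 1.49e-05). These intervals cover counting error only.

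**Figure D2:**
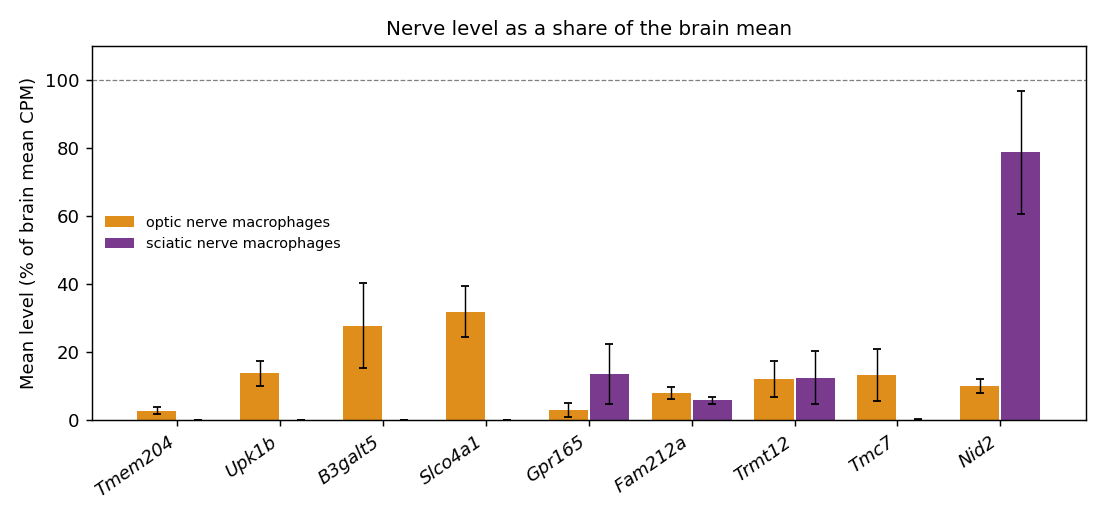
Mean level of each gene in the optic nerve (orange bars) and sciatic nerve (purple bars) as a percent of its mean CPM in brain, on a linear axis; error bars are the SD over 4 libraries on the same scale, and the dashed line is the brain mean. Optic nerve shares run from 2.86% (Tmem204) to 31.9% (Slco4a1), and the sciatic share of Nid2, 78.7%, lies far above all others.

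The orphan receptor gene Gpr165 was the only member of the surface group that read higher in the sciatic than in the optic nerve. Brain 1 to 5 read 43.4, 61.1, 193, 203 and 183 CPM. The sciatic libraries read 8.83, 18.1, 35.6 and 11.6 CPM, and the optic libraries 0, 5.22, 4.63 and 6.51 CPM. Brain fell into a low pair and a high trio, and brain 1 was only 1.22 times the highest nerve library. The sciatic mean of 18.5 ± 12.01 CPM (SD, n = 4) was 13.5% of the brain mean of 137 ± 77.8 CPM (SD, n = 5), and the optic mean of 4.09 ± 2.84 CPM (SD, n = 4) was 2.99% of it. Sciatic and optic libraries did not overlap, with a ratio of means of 4.53, but the difference did not pass the test (log2 fold change 2.18, SE 0.78, adjusted p = 0.0612). It passed without brain 1 (adjusted p = 0.0364) and without the filter on low counts (0.0376), and over the alternatives the adjusted p ran from 0.0262 to 0.190.

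Of the genes for intracellular proteins, Fam212a had the steadiest level and similar remnants in both nerves. It read 180, 177, 160, 151 and 153 CPM in brain, 10.6, 11.2, 8.28 and 8.26 CPM in the sciatic nerve and 10.2, 14.1, 11.2 and 16.6 CPM in the optic nerve. The nerve groups overlapped, and both lay far below brain. The sciatic mean was 9.58 ± 1.54 CPM (SD, n = 4), 5.83% of the brain mean of 164 ± 13.8 CPM (SD, n = 5), and the optic mean was 13.02 ± 2.90 CPM (SD, n = 4), or 7.93%. The sciatic minus optic log2 fold change of -0.44 (SE 0.18) did not pass the test (adjusted p = 0.103). It passed when libraries were scaled by their totals alone (-0.64, adjusted p = 0.0291).

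Trmt12 was read at nearly equal low levels in the nerves. Brain libraries read 19.4, 48.5, 38.3, 39.8 and 42.7 CPM, sciatic libraries 9.02, 3.53, 4.10 and 2.27 CPM and optic libraries 6.59, 3.23, 2.46 and 5.86 CPM. Brain 1 lay between the nerve libraries and the other brain libraries, and the nerve groups overlapped throughout. The sciatic mean of 4.73 ± 2.96 CPM (SD, n = 4) was 12.5% and the optic mean of 4.53 ± 2.00 CPM (SD, n = 4) 12.02% of the brain mean of 37.7 ± 10.95 CPM (SD, n = 5). The log2 fold change between the nerves was 0.06 (SE 0.43, adjusted p = 0.947), and its sign was not stable across settings.

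Nid2, the only gene of a secreted protein among the 9, was low in the optic nerve, while its sciatic level lay among the brain values. Brain 1 to 5 read 22.1, 28.3, 40.8, 43.7 and 32.6 CPM, the sciatic libraries 26.0, 19.5, 34.2 and 25.6 CPM, and the optic libraries 3.88, 3.66, 3.63 and 2.31 CPM. Sciatic and brain libraries were mixed in order, and the optic libraries lay apart below both. Means were 33.5 ± 8.89 CPM in brain (SD, n = 5), 26.3 ± 6.03 in the sciatic nerve (SD, n = 4) and 3.37 ± 0.715 in the optic nerve (SD, n = 4), 10.1% of brain. The sciatic level was 7.82 times the optic level (log2 fold change 2.96, SE 0.29, adjusted p = 1.99e-06). The sciatic minus brain value was -0.35 (SE 0.25), against -3.31 (SE 0.28) for optic minus brain; with scaling by library totals alone the former was -0.78.

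Nid2 is made by fibroblasts and vessel cells as well, and markers of fibroblasts, pericytes and smooth muscle had their highest sums in the sciatic nerve. Over 8 fibroblast genes the sum was 197 to 415 CPM in sciatic libraries, 13.02 to 41.3 CPM in the optic nerve and 2.27 to 7.65 CPM in brain, where Col3a1, Lum and Mfap5 were at 0 counts. Most of the fibroblast sum was Gsn, with means of 210 ± 47.0 CPM in the sciatic nerve, 25.1 ± 10.8 in the optic nerve and 4.43 ± 2.07 in brain. The next highest in the sciatic nerve was Dcn, at 32.7 ± 34.2 CPM. Pericyte and smooth muscle markers summed to 1.87 to 14.8 CPM in the sciatic nerve, 0.269 to 2.67 in the optic nerve and 0.0418 to 1.28 in brain. Sciatic 1 had the highest sums of both lists and sciatic 3 the highest Nid2. Brain libraries, with the lowest sums, held the highest mean of Nid2, and what part of the sciatic reads came from other cells was not tested. In addition, 437 exonic bases of Nid2 (8.45%) are shared with the oppositely oriented gene Rtraf (listed in the counts under its older symbol 2700060E02Rik), which was read at 52.4 ± 2.55 CPM in the sciatic nerve (SD, n = 4), 67.9 ± 5.25 in the optic nerve (SD, n = 4) and 64.2 ± 10.9 in brain (SD, n = 5). The strand setting is not given in the sources used here, so reads from the shared stretch cannot be told apart.

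**Figure D3:**
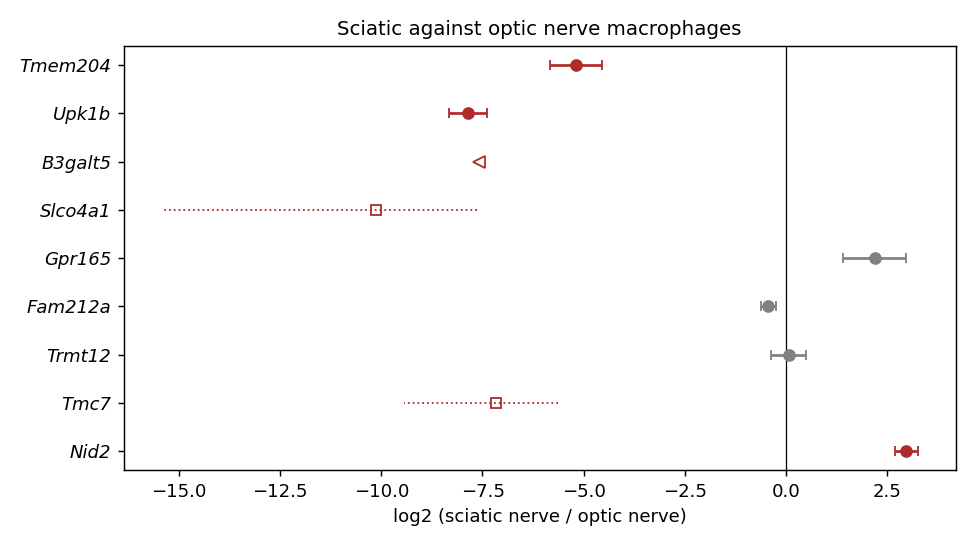
Log2 ratio of the sciatic to the optic nerve for each gene. Filled points are log2 fold changes with SE (red where the edgeR test passed, grey where not), open squares are ratios with dotted 95% counting intervals (Slco4a1 and Tmc7), and the open triangle is the bound for B3galt5; Upk1b and Tmem204 lie far on the optic side, Trmt12 and Fam212a near 0, and Gpr165 and Nid2 on the sciatic side.

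Between the nerves, a comparison that the selection did not use, 6 of the 9 genes passed the test: 5 were lower in the sciatic nerve (Tmem204, Upk1b, B3galt5, Slco4a1 and Tmc7) and 1, Nid2, was higher. Of all genes tested, 10.9% were lower in the sciatic nerve and 10.9% higher. The median sciatic minus optic log2 fold change was -5.19 over the 9 genes and 0.00 over all tested genes, and it is the same with B3galt5 at its bound. In 7 of the 9 genes the libraries of the nerves did not overlap, as in 29.9% of all genes tested. Gpr165 was the gene that did not overlap and did not pass.

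For the contrasts that the selection used, only a description can be given. Log2 fold changes of optic nerve minus brain were -5.13 (SE 0.42) for Tmem204, -5.07 (SE 0.86) for Gpr165 and -3.66 (SE 0.19) for Fam212a. They were -3.31 for Nid2, -3.06 (SE 0.44) for Trmt12, -2.91 (SE 0.50) for Tmc7 and -2.86 (SE 0.29) for Upk1b. The smallest were -1.84 (SE 0.39) for B3galt5 and -1.65 (SE 0.32) for Slco4a1. The 2 genes with the fewest sciatic counts, B3galt5 and Slco4a1, thus kept the largest shares of their brain level in the optic nerve. Sciatic minus brain values were -10.72 (SE 0.48) for Upk1b, -10.31 (SE 0.61) for Tmem204, -4.10 (SE 0.20) for Fam212a, -2.99 (SE 0.44) for Trmt12 and -2.89 (SE 0.76) for Gpr165. Without sciatic 2 the fit gave -12.37 for Upk1b, and without sciatic 3 it gave -13.85 for Tmem204. The sciatic counts left were 1 and 0, so the sizes of these 2 values are not measured. Over all genes tested, 11.9% passed the test as lower in both nerves than in brain. Both nerve contrasts share the brain libraries.

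On the scale of the smaller of the brain over nerve log2 differences, the genes were not the extreme of the table. Tmem204 ranked 45 of 13246 with 5.13, Fam212a 116 with 3.66 and Trmt12 215 with 2.99. Tmc7 (235), Gpr165 (243) and Upk1b (249) stood close together between 2.91 and 2.86. B3galt5 ranked 759 with 1.84, Slco4a1 962 with 1.65 and Nid2 4105 with 0.35. Just outside Nid2 lay Nr3c1, Rasgrf1, Ino80 and Plxdc1 with the same rounded value, and beside Slco4a1 lay Zfp184 and Zbtb26. Among the genes in the first places, Adra2a (3.67 ± 2.05 CPM in brain, SD, n = 5), mt-Nd3 (3.43 ± 3.85), Map3k19 (3.17 ± 1.49) and Nron (2.03 ± 1.25) had low brain levels and 0 counts in both nerves.

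Per length, as CPM per kilobase of exons, the brain levels of the 9 genes ran from Fam212a at 142 ± 11.9 (SD, n = 5) down to B3galt5 at 5.73 ± 1.92. Upk1b followed at 74.3 ± 8.99, Tmem204 at 40.2 ± 9.56 and Gpr165 at 30.1 ± 17.1. Slco4a1 at 12.4 ± 4.70, Tmc7 at 9.60 ± 3.27, Trmt12 at 8.47 ± 2.46, Nid2 at 6.47 ± 1.72 and B3galt5 formed a low group whose neighbours lay within their SDs of each other. Fam212a and Upk1b were each separated from the next gene by more than the SD of either, Tmem204 was not separated from Gpr165 in this way, and Gpr165 lay above Slco4a1 by about its own SD. In the optic nerve Fam212a (11.3 ± 2.51) and Upk1b (10.2 ± 2.74, SD, n = 4) were highest and not apart from each other, Slco4a1 followed at 3.95 ± 0.932, and the other 6 lay between 0.651 (Nid2) and 1.595 (B3galt5). In the sciatic nerve the order was Fam212a at 8.29 ± 1.33, Nid2 at 5.09 ± 1.16, Gpr165 at 4.08 ± 2.64 and Trmt12 at 1.06 ± 0.665, with the other 5 under 0.05.

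**Figure D4:**
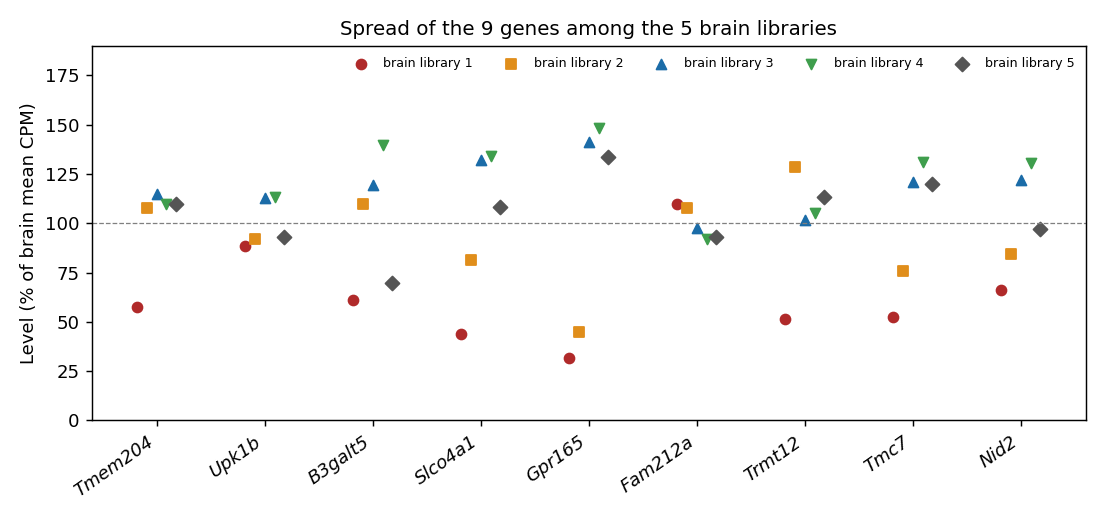
Level of each gene in brain libraries 1 to 5 (symbols), as a percent of its mean CPM over the 5 libraries; the dashed line is that mean. Brain 1 lies lowest for 8 of the 9 genes, Fam212a being the exception, and Gpr165 has the widest spread.

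The brain libraries varied in a partly shared way. Brain 1, the shallow library with more mitochondrial counts, was the lowest brain library in 8 of the 9 genes. Brain 1 and 2 both lay below brain 3 to 5 in 6 genes, most of all in Gpr165, where the former averaged 52.3 CPM and the latter 193 CPM. Fam212a alone had both above the other brain libraries, at 1.16 times their mean. The share of all genes tested with these orders was not counted, so the orders cannot be called particular to the 9 genes. Microglial markers summed to 32748 CPM in brain 1 and 42345 in brain 2, against 60436 to 61145 in brain 3 to 5. The part of depth, mitochondrial share or marker sum in these differences was not tested. Without brain 1 and 2 together, the count of genes with every brain library above every nerve library stayed at 8; with no filter on low counts it was 7.

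Relatives of the 9 genes were examined through lists of 152 other genes, of which 94 were tested. Against brain, 35 of the 94 (37.2%) were lower and 25 (26.6%) higher in the sciatic nerve, where 24.3% and 24.1% of all genes tested were lower and higher. In the optic nerve 23 (24.5%) were lower and 16 (17.0%) higher, against 17.4% and 19.6% of all genes. Median log2 fold changes of the 94 were -0.13 and -0.10, near those of all tested genes, -0.09 and -0.08. Relatives thus moved in both directions, and most lists had members rising beside members falling.

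The other uroplakins could not be compared, since none of the 4 passed the filter. Of 21 tetraspanins, the wider family of Upk1b, 12 were lower and 5 higher in the sciatic nerve than in brain, and 3 were lower and 5 higher in the optic nerve. Cd151, which partners integrins, fell in both, from 20.6 ± 4.39 CPM in brain (SD, n = 5) to 7.46 ± 2.32 in the optic and 7.09 ± 1.87 in the sciatic nerve (SD, n = 4). Tspan17 rose, from 1.22 ± 1.38 CPM in brain to 12.6 ± 2.95 in the optic and 49.9 ± 6.04 in the sciatic nerve. Tspan32 also rose, from 27.4 ± 7.52 CPM to 86.9 ± 16.8 and 82.2 ± 22.2, as did Tspan2 at about 1 CPM in the nerves.

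Of 10 relatives of B3galt5, 6 were higher and 2 lower in the sciatic nerve, and 2 were higher and 4 lower in the optic nerve. B3galt4, which builds gangliosides, fell from 31.4 ± 6.31 CPM in brain to 6.12 ± 3.23 in the optic nerve (log2 fold change -2.36, adjusted p = 0.00203) and 3.04 ± 2.72 in the sciatic nerve (-3.36, adjusted p = 9.83e-05). B3galt6, an enzyme of the proteoglycan linker, fell from 31.3 ± 6.23 CPM to 10.4 ± 3.71 and 9.34 ± 5.77. B3gnt7 and B3gnt8, which lengthen lactosamine chains, rose from 3.13 and 2.73 CPM in brain to 8.98 and 6.04 in the optic and 7.29 and 6.64 in the sciatic nerve.

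Of 7 tested genes for organic anion and thyroid hormone transport other than Slco4a1, 3 were lower and 2 higher in the sciatic nerve, and 2 were lower in the optic nerve. Slco2b1, a further organic anion transporter, fell from 1604 ± 481 CPM in brain to 893 ± 107 in the optic and 573 ± 139 in the sciatic nerve. Slc7a8, an amino acid transporter that also carries thyroid hormone, fell from 452 ± 208 CPM to 238 ± 39.7 and 141 ± 35.1. Both kept a larger share of the brain level in the sciatic nerve than Slco4a1, which kept 1 count.

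Among 16 receptors beside Gpr165, 10 were lower and 4 higher in the sciatic nerve, and 9 were lower and 3 higher in the optic nerve. Lpar5, a lysophosphatidic acid receptor, fell from 29.9 ± 11.2 CPM in brain to 4.48 ± 4.00 in the optic and 1.31 ± 0.855 in the sciatic nerve. Gpr157 fell from 21.4 ± 5.09 CPM to 6.51 ± 1.48 and 2.56 ± 2.12. Gpr65, a proton-sensing receptor, rose from 7.05 ± 3.74 CPM to 65.5 ± 11.4 and 102 ± 11.4. Gpr132 had 0 counts in brain and rose to 6.06 ± 1.91 CPM in the optic and 67.2 ± 12.99 in the sciatic nerve.

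For the kinases related to the Fam212a product, no difference was called. None of 4 tested genes of that list passed in any contrast with edgeR, none had an unadjusted p under 0.05, and DESeq2 called none. Pak1 read 110 ± 27.7 CPM in brain, 103 ± 19.1 in the optic and 89.1 ± 11.6 in the sciatic nerve. Pak4, the kinase inhibited by the product of Fam212a, read 12.8 ± 4.26, 7.97 ± 3.19 and 11.8 ± 1.98 CPM.

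Of 17 other tRNA modification genes listed with Trmt12, 4 were lower and 1 higher in the sciatic nerve, and 3 were lower and 2 higher in the optic nerve. Later steps of wybutosine synthesis did not all move alike. Tyw3 fell from 9.33 ± 2.81 CPM in brain to 2.23 ± 1.15 in the optic nerve (log2 fold change -2.06, adjusted p = 0.0375) and 0.896 ± 0.660 in the sciatic nerve (-3.37, adjusted p = 0.00250). Lcmt2 fell from 29.5 ± 10.1 CPM to 12.1 ± 5.25 (-1.29, adjusted p = 0.0122) and 4.29 ± 1.17 (-2.78, adjusted p = 3.35e-05). Tyw5 rose from 3.85 ± 0.649 CPM to 7.41 ± 1.50 in the optic nerve (0.94, adjusted p = 0.0421) and read 4.55 ± 1.04 in the sciatic nerve (0.24, adjusted p = 0.594).

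Of the channel-like genes beside Tmc7, 2 were tested. Tmc6 was lower in the sciatic nerve than in brain, with 59.4 ± 5.03 CPM in brain, 55.2 ± 9.45 in the optic and 15.8 ± 3.77 in the sciatic nerve, and its difference between the nerves passed the test (log2 fold change -1.81, adjusted p = 9.41e-06). Tmc8, at 2.13 ± 0.462 CPM in brain, 1.10 ± 0.746 in the optic and 0.403 ± 0.598 in the sciatic nerve, passed in no contrast with edgeR, while DESeq2 called it in the sciatic nerve against brain.

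Of 6 basement membrane genes tested beside Nid2, 2 were higher and 1 lower in the sciatic nerve, and none passed in the optic nerve, where 1 had an unadjusted p under 0.05 and DESeq2 called 0. Col4a1, a collagen IV chain, read 2.47 ± 0.963 CPM in the sciatic nerve (SD, n = 4) and under 0.02 CPM elsewhere. Lamc1, a laminin chain, was higher in the sciatic than in the optic nerve, 13.4 ± 2.74 against 3.45 ± 2.14 CPM (log2 fold change 1.95, adjusted p = 0.0273). Col15a1 ran the other way, at 6.82 ± 1.69 CPM in brain, 5.52 ± 1.44 in the optic and 0.262 ± 0.480 in the sciatic nerve. Unlike Nid2, Col4a1 was thus nearly unread in brain.

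Of 11 claudin-like and junction genes beside Tmem204, 5 were higher and 2 lower in the sciatic nerve, and 4 were higher and 2 lower in the optic nerve. Tjp1, a scaffold of tight junctions, fell from 104 ± 22.2 CPM in brain to 40.6 ± 5.99 in the optic nerve (log2 fold change -1.36) and 0.449 ± 0.478 in the sciatic nerve (-7.81). Emp1 rose from 0.00712 CPM in brain to 29.0 ± 13.6 in the optic and 582 ± 90.9 in the sciatic nerve. Emp3 rose from 16.8 ± 6.41 CPM to 145 ± 12.5 and 356 ± 28.8, and Ctnna1 from 54.3 ± 10.96 CPM to 87.0 ± 9.16 and 193 ± 51.9.

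Across the 13 libraries, the 36 pairs of the 9 genes had a median Pearson r of 0.714 between log2 CPM values, a description over libraries that share tissue and depth. B3galt5 and Slco4a1 were the most alike pair at 0.991, and Slco4a1 and Nid2 the least at -0.18. Outside the 9, the gene most like Slco4a1 was Tmem119, a defining microglial surface gene (r = 0.996), at 4732 CPM in brain, 1731 in the optic and 6.85 in the sciatic nerve. Upk1b was most like Tmem100 (0.992), B3galt5 most like Hspb3 (0.992) and Tmem204 most like Vsir (0.993). Nid2 was most like Hfe (0.965), a regulator of iron uptake, which read 255 CPM in brain, 101 in the optic and 262 in the sciatic nerve. Fam212a was most like 1700017B05Rik (0.991), Tmc7 most like 0610040J01Rik (0.986), Trmt12 most like Tor4a (0.964) and Gpr165, with the loosest match, most like Qprt (0.948). The mean profile of the 9 was most like Fam110a (0.986), and Mertk, a receptor for apoptotic cells, was among its 10 closest genes (0.978; 675 CPM in brain, 169 in the optic and 55.7 in the sciatic nerve).

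The nearest protein-coding genes on either side, by the order of the RefSeq annotation, numbered 18, of which 8 were tested. Both nerves were lower than brain for 2 of them. B4galt4, another galactosyltransferase gene, lies 4128 bases from Upk1b and read 147 ± 12.2 CPM in brain, 51.1 ± 10.2 in the optic nerve (log2 fold change -1.53, adjusted p = 3.89e-06) and 12.8 ± 1.27 in the sciatic nerve (-3.53, adjusted p = 4.92e-10). Rnf139, a ubiquitin ligase gene 12448 bases from Trmt12, read 159 ± 56.1 CPM in brain, 48.3 ± 9.12 in the optic and 51.8 ± 14.0 in the sciatic nerve. Uba7, only 167 bases from Fam212a, read 38.1 ± 6.85, 48.7 ± 9.09 and 44.2 ± 7.27 CPM and passed in no contrast. Coq7, beside Tmc7, was higher in both nerves, and Gng2, beside Nid2, higher in the sciatic nerve. Over the 8 genes the median log2 fold changes against brain were -0.22 in the sciatic and -0.04 in the optic nerve.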

How the data were processed

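Bulk RNA sequencing counts of 13 libraries were used. The authors deposited raw read counts per gene symbol. Per the submitters' processing notes, STAR, mm10 and featureCounts 1.5.1 were used. Sources used here name no annotation, strand setting or rule for multi-mapped reads. Nerve columns were mapped by their initials and numbers, brain columns by elimination; 0 columns were left unused.

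The tests used edgeR 4.0.16 (R 4.3.3): filterByExpr by tissue, TMM scaling, and 1 quasi-likelihood fit over 13 libraries with tissue as factor. P-values of the F-test were adjusted by Benjamini-Hochberg over 13246 genes, called under 0.05. The procedure was tested on simulated data. SE is the log2 fold change divided by the root of F. Groups with 0 counts were set to 3 counts, and 1 to 3 counts given exact 95% Poisson intervals.

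The 9 genes and all lists were chosen with earlier results of these data known; contrasts against brain are therefore given for the 9 without p-values. Named relatives are those called in the same direction in both nerves, by size, at most 4 a list; Pak1, Pak4, Tyw5, Tmc6, Tmc8, Col4a1, Lamc1 and Col15a1 were named after their values were seen. Marker lists cover microglia, border macrophages, endothelium, pericytes and fibroblasts, and, in the closing section, other cells. Alternatives were DESeq2 1.42.0, other scalings and filters, nerve libraries alone, a replicate block and leaving out libraries. Protein sequences, and start-site windows of Tmem204, Upk1b, Trmt12 and Nid2, were not used here. The values of 1 other gene are not reported here.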

Additional observations from a re-analysis of the deposited data

Results flagged for a closer look

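The groups of libraries were 26 (9 genes in 3 tissues, without B3galt5 in the sciatic nerve, where all libraries were at 0). In 5 of them the end library's gap to the next, as a share of the group's range, passed Dixon's 95% limit. That limit is 0.829 for 4 libraries and 0.710 for 5, and for normally spread values chance alone passes it in about 5% of groups. The 5% does not hold for groups with few counts. For Tmem204, Slco4a1 and Tmc7 in the sciatic nerve the share was 1, because a single library held all the counts (4, 1 and 3). With the 1 count of Slco4a1 no other share was possible. For Tmem204 in brain the share was 0.873, with brain 1 low. For Nid2 in the optic nerve it was 0.843, with optic 4 low at 2.31 CPM.

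For 6 genes the difference from brain was not the same in the nerves, by edgeR's test of sciatic against optic nerve. The sciatic minus optic log2 fold change was -5.19 for Tmem204, -7.86 for Upk1b and 2.96 for Nid2. For B3galt5 the optic nerve was at least 192-fold above the sciatic nerve. The ratio of optic to sciatic nerve was 1112 for Slco4a1 (95% counting interval 199.5 to 43913) and 144 for Tmc7 (49.3 to 699).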

How the results depend on the processing

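Alternatives were DESeq2, its size factors, library totals, filters, nerve libraries alone, the replicate block and left-out libraries. Against brain, 5 values moved by more than their spread: with library totals alone Fam212a (-4.55 sciatic, -3.91 optic) and Nid2 (-0.78 sciatic), and in the sciatic nerve Upk1b without sciatic 2 (-12.37) and Tmem204 without sciatic 3 (-13.85). These Upk1b and Tmem204 values rest on 1 and 0 sciatic counts, so their sizes are not measured. The sign of Trmt12 between the nerves changed with library totals alone (-0.14), under the replicate block (-0.023) and without sciatic 1 (-0.46), optic 2 (-0.085) or optic 3 (-0.14), with a range of -0.46 to 0.30 over left-out libraries. Gpr165 passed with no filter (adjusted p = 0.0376), without brain 1 (0.0364) and without brain 1 and 2 (0.0262), and Fam212a passed with library totals alone (0.0291). Leaving out 1 library at a time, 6 to 7 of the 9 genes passed between the nerves, 54 to 63 of the 94 relatives passed in the sciatic nerve (60 with all libraries) and 31 to 40 in the optic nerve (39), and 8 genes had every brain library above every nerve library (7 with no filter on low counts). Of the 10 genes closest to the mean profile, 8 were shared with a prior count of 0.5. With the replicate block, 6 genes passed. Same-numbered sciatic and optic libraries correlated between -0.07 and 0.02 in their deviations. These values show no shared effect of the number, but cannot tell whether same-numbered libraries came from the same animals. The brain columns carry no number of the labels, so no paired fit with brain was possible. Library totals alone moved the median log2 fold change of all genes to -0.53 (sciatic minus brain), -0.33 (optic minus brain) and -0.19 (sciatic minus optic). Depth limits the 5 genes with 5 sciatic counts or fewer.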

Other observations

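Markers of cells other than macrophages and vessel or connective tissue cells were read in the same libraries, as summed CPM per list. Neuronal markers (8 genes) summed to 27.1 CPM in brain 1, the library in which 8 of the 9 genes were lowest, and to between 1.59 and 7.94 CPM in the other brain libraries. They summed to 0.138 to 1.50 CPM in the sciatic nerve and 0.223 to 1.40 CPM in the optic nerve. Astrocyte markers summed to 185 to 246 CPM in brain, almost all of it Slc1a3, to 88.2 to 109 CPM in the optic nerve and to 23.1 to 94.9 CPM in the sciatic nerve, where sciatic 3 was highest. Markers of oligodendrocytes and Schwann cells summed to 477 to 909 CPM in brain, 787 to 1070.2 CPM in the optic nerve and 1235 to 1343 CPM in the sciatic nerve, and most of this was Pmp22. Lymphoid markers stayed under 5 CPM in every library. Neutrophil and monocyte markers summed to 371 to 542 CPM in the sciatic nerve, mostly Ccr2, against 5.81 to 14.4 CPM in the optic nerve and 0.498 to 9.59 CPM in brain; S100a8, Ly6g, Mpo and Elane were at 0 counts in all 3 groups. The part of these cells in the levels of the 9 genes was not tested.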
